A study of Mus musculus with 6 samples.

Results

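The genes that encode the NF-kB transcription factors and the proteins that hold them in check were measured in 32D cells with and without the Nup98::Nsd1 fusion gene. The group held 10 named genes: Nfkb1, Nfkb2, Rel, Rela, Relb, Nfkbia, Nfkbib, Nfkbie, Tnfaip3 and Bcl3. Every probe set annotated to one of these symbols alone was taken, which gave 17 of the 45037 probe sets that were no controls. These 17 covered 9 of the 10 genes. No probe set was matched to Nfkb1 in the annotation used, so Nfkb1 was not analysed here.

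NF-kB is a family of dimeric transcription factors that switch on genes of inflammation, cell survival and immunity. In the canonical branch, dimers such as RelA with p50 wait in the cytoplasm bound to an IkB protein, and the IkB kinase complex marks that IkB for destruction. In the non-canonical branch, the p100 product of Nfkb2 is cut to p52, which enters the nucleus with RelB. Several inhibitor genes, Nfkbia and Tnfaip3 among them, are themselves switched on by NF-kB and close a negative feedback loop. In myeloid cells the pathway is best known for its response to microbial products and to cytokines of the TNF and IL-1 families.

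The 32D line is an IL-3-dependent line from the bone marrow of C3H/HeJ mice infected with Friend leukaemia virus. All 6 samples were 32D cells: 3 were mock-transduced, with the retroviral vector MSCVpuro in their names, and 3 carried Nup98::Nsd1, a fusion of a nuclear pore gene with a histone methyltransferase gene that is found in acute myeloid leukaemia. Each sample's total RNA was read on 1 Affymetrix Mouse Genome 430 2.0 array. The labels name neither separate cultures nor whether each line was a clone or a pool, so the p-values measure the spread between these samples, which may be technical. The RNA came from whole cultures, in which a change in the mix of cells and a change in RNA per cell cannot be told apart.

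A value below is the MAS5 signal of a probe set, a scaled intensity in arbitrary units, and a log2 fold change is Nup98::Nsd1 over mock. MAS5 also calls each probe set Present or Absent on each array. Probe sets were tested with limma where all 3 arrays of 1 group or both had called them Present, and a change was called at a Benjamini-Hochberg adjusted p under 0.05 over the 20494 probe sets tested. Signals of different probe sets were not read as relative amounts of their transcripts, because each has its own brightness. The ratios to Rela below compare changes between the groups, and the sums of marker signals weigh bright probe sets most.

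All 16 tested probe sets of these genes rose in the Nup98::Nsd1 cells and 0 fell. Of all tested probe sets, 42.3% were called higher. At least 2-fold rises were called for 13 of the 16, against 12.8% of all tested probe sets. By gene, each represented by its brightest tested probe set, all 9 measured genes rose, where 42.9% of all 9641 tested genes were called higher and 29.5% lower. The members' median log2 fold change was 1.55 over probe sets and 1.48 over genes, and that of all tested probe sets and genes was 0.15 and 0.12. In each of the 16, every Nup98::Nsd1 array lay above every mock array. The untested Nfkbib probe set, Absent on all 6 arrays, was separated in the same way. The share of all tested probe sets with such a separation was not counted, so it is not read as a trait of the members. Of these 16, 13 were Present on all 6 arrays, and all 13 were called higher when only probe sets Present on all 6 were tested. The Relb probe set and 1 of the Nfkb2 probe sets were Present on no mock array, and 1 Tnfaip3 probe set was Absent on mock replicate 1. These passed the filter through the group where they were high, and each is among those called at least 2-fold higher.

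**Figure D1:**
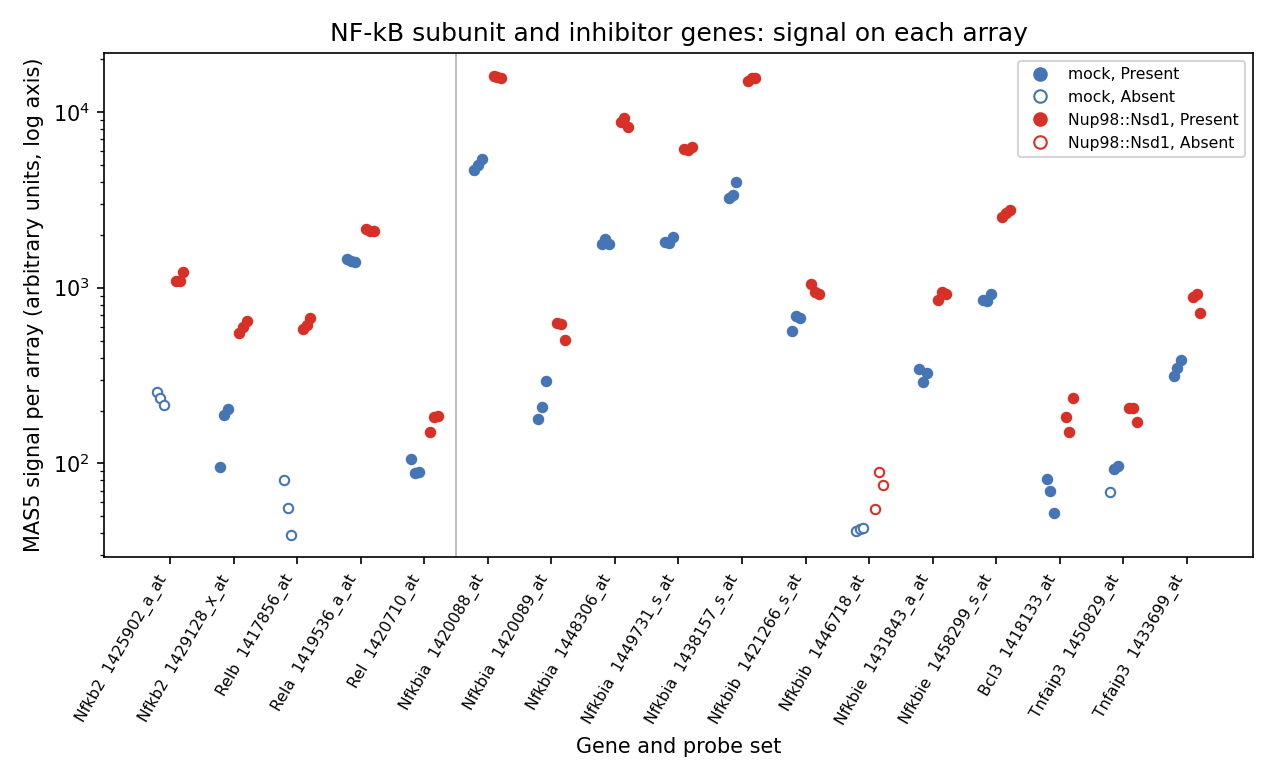
MAS5 signal (arbitrary units, log axis) of each of the 17 probe sets on each array, with blue points for the 3 mock and red points for the 3 Nup98::Nsd1 arrays, filled where Present and open where Absent; the vertical line divides subunit genes from inhibitor genes. In the 16 tested probe sets, and in the untested one, the red points lie above all blue points. The Nfkbib probe set 1446718_at is open on all 6 arrays and was not tested.

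Among the 9 measured genes, the promoter table held windows for 8, and the stretches around kappa-B motifs are shown because the kappa-B site is the DNA element that NF-kB dimers bind. The 250 bases before each listed transcription start were searched on both strands for the 10-base kappa-B consensus, with overlapping matches kept. Matches stood before listed starts of Nfkbia, Nfkb2, Rel, Nfkbie and Tnfaip3, 5 of the 8 genes, and in 7 of the 11 promoters listed for the 8. Over the whole table, 4.46% of 27025 genes and 3.9% of 32851 promoters held a match. The sequences below are RefSeq sequences of build GRCm38.p6, read 5′ to 3′ on the gene's strand, with the matched bases in capitals.
Nfkbia: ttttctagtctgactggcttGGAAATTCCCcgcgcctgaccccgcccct
Nfkb2: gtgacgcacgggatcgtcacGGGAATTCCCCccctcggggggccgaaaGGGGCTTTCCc
Rel: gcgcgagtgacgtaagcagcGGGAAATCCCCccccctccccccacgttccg
Nfkbie: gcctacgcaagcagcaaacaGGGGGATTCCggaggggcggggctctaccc
Tnfaip3: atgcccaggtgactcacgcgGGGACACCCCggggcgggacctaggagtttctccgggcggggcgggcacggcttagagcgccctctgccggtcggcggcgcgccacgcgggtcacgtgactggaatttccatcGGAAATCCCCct

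The Nfkbia stretch is chr12:55492648-55492696 on the minus strand, and its match began 29 bases before the start. The Nfkb2 stretch is chr19:46304678-46304736 on the plus strand, before the most upstream of 3 starts listed for that gene. It held 3 matches, of which 2 overlap by all but 1 base. All 3 listed starts lie inside the span of the gene, chr19:46300994-46312400, and the bases before that span were not searched. Promoters with 3 or more matches made up 0.0426% of the table. The Rel stretch is chr11:23771031-23771081 on the minus strand, with 2 overlapping matches. The Nfkbie stretch is chr17:45555574-45555623 on the plus strand, and the Tnfaip3 stretch is chr10:19015411-19015555 on the minus strand, with 2 matches that lie apart. No match was found in the windows of Rela, Nfkbib and Bcl3. By gene, the log2 fold changes of the 5 with a match ran from 0.87 to 2.29 and those of the 3 without from 0.58 to 1.48, so the ranges overlapped. A match is a run of letters in the reference, and binding was not measured.

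The subunit genes of the non-canonical branch, Relb and Nfkb2, rose on all 3 of their probe sets, by 3.88-fold to 11.0-fold. Relb encodes the partner of p52 and lies at chr7:19606217-19629438. Its probe set gave 80.6, 56.0 and 39.4 in mock cells, Absent on all 3 arrays, and 582.8, 613.6 and 668.1 in Nup98::Nsd1 cells, Present on all 3. The groups were far apart, with the lowest Nup98::Nsd1 signal 7.23 times the highest mock signal. The mean went from 58.7 ± 20.7 to 621.5 ± 43.1 (SD, n = 3 each), a log2 fold change of 3.46 (SE 0.22, adjusted p = 8.12e-08). This was the rise ranked 66 of the 20494 tested probe sets. The fold of 11.0 is the fitted one, and each mock signal was above the lowest signal called Present on its array. With all 3 mock arrays Absent the mock level itself is uncertain, and so are the fold and the rank. Adding 64 to each signal before taking log2 gave Relb a log2 fold change of 2.49.

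Nfkb2, at chr19:46300994-46312400, encodes p100, which is both a precursor of p52 and an inhibitor of RelB. Its probe set 1425902_a_at read 253.8, 234.5 and 214.0 in mock cells, where it was Absent on all 3 arrays, and 1097.7, 1091.3 and 1231.7 in Nup98::Nsd1 cells. The fitted change was 4.88-fold (log2 2.29, SE 0.091, adjusted p = 2.29e-09), from 234.1 ± 19.9 to 1140.2 ± 79.3 (SD, n = 3). The second probe set, 1429128_x_at, was Present on all 6 arrays and read 95.5, 189.7 and 205.0 in mock cells against 554.5, 600.0 and 650.0. Mock replicate 1 was low here, yet all 3 Nup98::Nsd1 arrays stood well above the 3 mock arrays. This probe set rose 3.88-fold, from 163.4 ± 59.3 to 601.5 ± 47.7 (log2 1.95, SE 0.234, adjusted p = 1.53e-05). The x in its name marks probes that can also match other transcripts.

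The canonical subunit genes Rela and Rel rose by less than 2-fold. Rela encodes p65, the main activating subunit of the canonical dimer, and lies at chr19:5637442-5648134. Its signals were 1445.5, 1419.8 and 1407.8 in mock cells and 2166.8, 2111.9 and 2102.4 in Nup98::Nsd1 cells, tight in both groups and without overlap. The change was 1.49-fold (log2 0.58, SE 0.046, adjusted p = 5.22e-07), from 1424.4 ± 19.3 to 2127.0 ± 34.8 (SD, n = 3). Rel, at chr11:23736847-23770969, encodes c-Rel, a subunit prominent in lymphoid and myeloid cells. It read 105.3, 88.8 and 89.8 against 151.5, 183.0 and 186.2. Both groups were dim, and the lowest Nup98::Nsd1 array was 1.44 times the highest mock array. The fit gave a 1.83-fold rise (log2 0.87, SE 0.171, adjusted p = 0.000736), from 94.7 ± 9.25 to 173.6 ± 19.2 (SD, n = 3).

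Nfkbia encodes IkB-alpha, an inhibitor gene that NF-kB itself induces, and lies at chr12:55489409-55492647. Its 5 probe sets all rose, between 2.61-fold and 4.81-fold. The brightest, 1420088_at, read 4654.9, 4967.4 and 5365.4 in mock cells and 16002.5, 15744.1 and 15482.9 in Nup98::Nsd1 cells. The lowest of the latter was 2.89 times the highest of the former. It rose 3.16-fold, from 4995.9 ± 356.1 to 15743.2 ± 259.8 (log2 1.66, SE 0.051, adjusted p = 3.88e-10). Probe set 1448306_at read 1764.3, 1893.7 and 1779.3 against 8749.6, 9188.6 and 8243.4. With a log2 fold change of 2.27 (SE 0.05) it had the smallest adjusted p of the members, 5.29e-11, and the largest rise among members Present on all 6 arrays.

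The other Nfkbia probe sets moved the same way by different amounts. Probe set 1438157_s_at went from 3526.5 ± 391.0 to 15348.8 ± 288.8 and rose 4.37-fold (SD, n = 3). Probe set 1449731_s_at went from 1854.9 ± 85.3 to 6160.8 ± 144.6 and rose 3.32-fold. The dimmest, 1420089_at, read 179.9, 210.4 and 292.5 against 630.2, 619.7 and 505.0 and rose 2.61-fold (SE 0.163 on the log2 scale). The 95% interval of log2 fold change for 1448306_at, 2.16 to 2.38, did not reach that of 1420088_at, 1.55 to 1.77, so the probe sets gave unequal sizes for 1 gene. The letter s marks probe sets whose probes can match several transcripts.

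Nfkbib and Nfkbie encode IkB-beta and IkB-epsilon, the other IkB proteins that hold dimers in the cytoplasm. Nfkbib, at chr7:28758251-28766644, read 569.2, 691.0 and 670.5 in mock cells and 1049.4, 941.6 and 924.4 in Nup98::Nsd1 cells on its tested probe set, 1421266_s_at. The groups did not overlap, but the lowest Nup98::Nsd1 signal was only 1.34 times the highest mock signal. It rose 1.51-fold, from 643.6 ± 65.2 to 971.8 ± 67.8 (log2 0.60, SE 0.086, adjusted p = 7.04e-05). The untested Nfkbib probe set, 1446718_at, was Absent on all 6 arrays, at 41.3, 42.5 and 43.0 in mock cells and 54.9, 89.1 and 75.7 in Nup98::Nsd1 cells. It was therefore not detected in either group.

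Both Nfkbie probe sets rose by similar amounts. The brighter, 1458299_s_at, read 846.4, 841.9 and 920.5 in mock cells and 2531.3, 2660.8 and 2771.8 in Nup98::Nsd1 cells, and rose 3.05-fold (log2 1.61, SE 0.058, adjusted p = 1.18e-09). Probe set 1431843_a_at read 346.5, 288.7 and 328.9 against 855.6, 941.4 and 915.5, and rose 2.82-fold (log2 1.5, SE 0.089, adjusted p = 4.75e-08). Their 95% intervals, 1.48 to 1.74 and 1.30 to 1.69, overlapped. Nfkbie lies at chr17:45555700-45563169.

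Bcl3 and Tnfaip3 act at other levels of the pathway. Bcl3, at chr7:19808462-19822824, is an atypical IkB protein of the nucleus that binds p50 and p52 dimers and can help them activate genes. It read 81.9, 69.7 and 52.3 in mock cells and 183.7, 150.9 and 235.6 in Nup98::Nsd1 cells. The signals were low and scattered within each group, but the groups stood apart. The rise was 2.80-fold, from 68.0 ± 14.9 to 190.1 ± 42.7 (log2 1.48, SE 0.23, adjusted p = 0.000124). Tnfaip3, at chr10:19000910-19015410, encodes A20, a ubiquitin-editing enzyme that shuts off signalling upstream of the IkB kinase. Its brighter probe set, 1433699_at, read 313.3, 349.4 and 386.6 against 882.9, 923.1 and 713.8, a 2.40-fold rise (log2 1.26, SE 0.112, adjusted p = 1.28e-06). Its dimmer probe set, 1450829_at, read 69.2, 92.9 and 96.5 against 206.3, 207.1 and 171.9, a 2.28-fold rise (log2 1.19, SE 0.186, adjusted p = 0.000136). Mock replicate 1 was Absent on the dimmer probe set, and Nup98::Nsd1 replicate 3 was the lowest of its group on both.

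The size of the smaller rises depended on how the arrays were scaled. As deposited, the hybridization controls, transcripts spiked in equal amount into each array's mixture, averaged 4390 to 4830 on the mock arrays and 5930 to 6030 on the Nup98::Nsd1 arrays. Scaling each array to these controls moved the median of all tested probe sets from 0.15 to -0.21, and gave 4573 probe sets higher and 9586 lower in place of 8678 and 5657. Quantile normalization gave 6830 higher and 6919 lower, centring on the 75th percentile 6350 and 7813, and centring on the median 6646 and 7477. Under each of these 4 scalings all 16 member probe sets were still called higher. Rela then lay between 0.21 and 0.59 and Nfkbib between 0.23 and 0.48 on the log2 scale, and Rel between 0.45 and 0.70. With hybridization control scaling the adjusted p was 0.0118 for Rela and 0.0324 for Nfkbib, and for Rel it was largest with quantile normalization, at 0.0393. Relb lay between 3.10 and 3.29, and the Nfkbia probe set 1448306_at between 1.90 and 2.31.

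**Figure D2:**
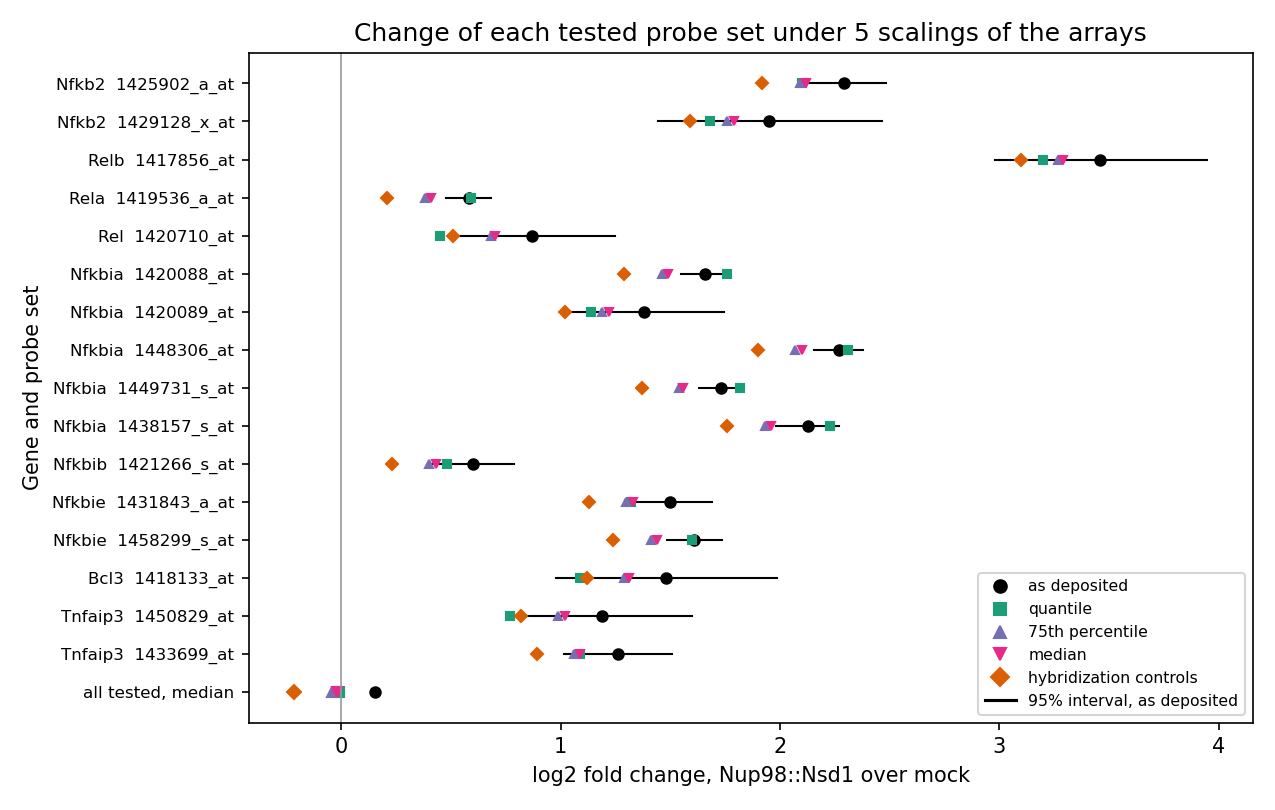
Log2 fold change of Nup98::Nsd1 over mock (horizontal axis) of each of the 16 tested probe sets; black points with lines are the values and 95% intervals from the signals as deposited, and coloured symbols the values under 4 other scalings. All symbols of the members lie to the right of 0, between 0.21 and 3.46, while the median of all tested probe sets, in the bottom row, crosses 0.

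To set the members against each other without any scaling, each signal was divided by the Rela signal of the same array, a comparison chosen after the values were seen. Relative to Rela, Relb was higher by 2.88 on the log2 scale, Nfkb2 by 1.71, Nfkbia by 1.08 and Nfkbie by 1.03. Bcl3 was higher by 0.91 and Tnfaip3 by 0.68. The values of Relb and Nfkb2 are from probe sets Absent on all 3 mock arrays, so their size is uncertain and sets no order among the members. The Nfkb2 probe set Present on all 6 arrays, 1429128_x_at, was higher by 1.38, without overlap. Nfkbia's value of 1.08 is that of its brightest probe set, and its others lay between 0.81 and 1.69. The second probe sets of Nfkbie and Tnfaip3 were higher by 0.92 and 0.61. The groups did not overlap on any of these, and no order of Nfkbia and Nfkbie was read from them. In these 6 of 8 genes the groups did not overlap, and the exact two-sided permutation test over the 20 groupings of arrays gave p = 0.1 for each, the smallest that 3 arrays against 3 allow (0.133 after Benjamini-Hochberg adjustment over the 8 genes). Rel differed by 0.29 (exact permutation p = 0.2, adjusted 0.229) and Nfkbib by 0.02 (exact permutation p = 0.9), and their groups overlapped. No gene passed 0.05 in this test, which the number of arrays did not allow. The share of all tested genes whose groups separate after division by Rela was not counted, so 6 of 8 has no background beside it.

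**Figure D3:**
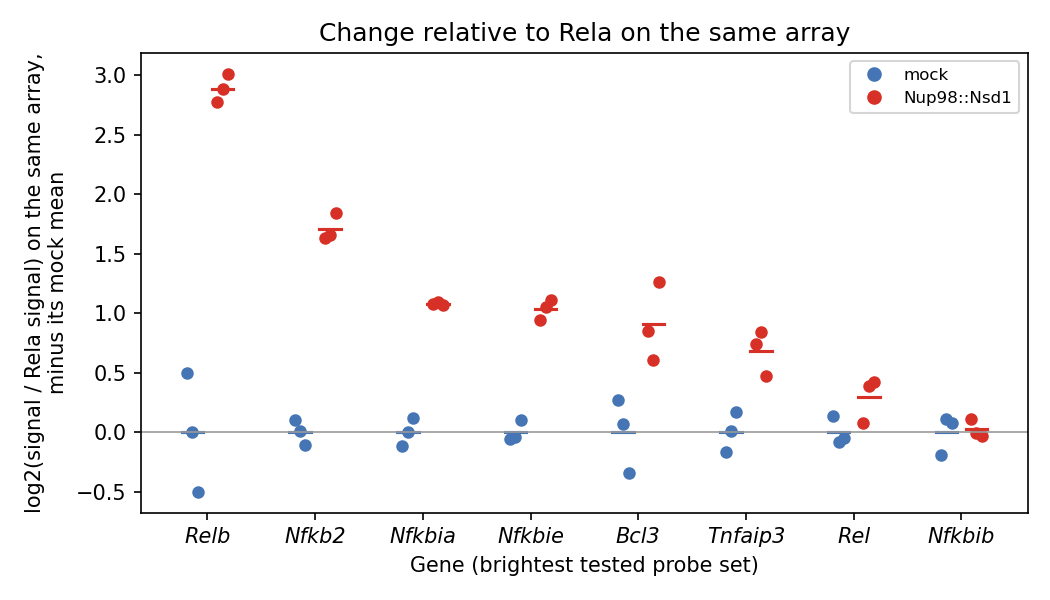
Log2 ratio of each gene's signal to the Rela signal on the same array, minus the mean of the mock arrays (vertical axis), with 1 point per array and a bar at each group's mean. The Nup98::Nsd1 points of Relb, Nfkb2, Nfkbia, Nfkbie, Bcl3 and Tnfaip3 lie above all mock points; those of Rel and Nfkbib mix with them.

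The kinases and adaptors that act before the inhibitors were mixed. Of 28 tested genes in a list of the IkB kinase and upstream signalling, 15 rose, 5 fell and 8 were not called; their median log2 fold change was 0.37, against 0.12 over all tested genes. That is 53.6% higher in the list, beside 42.9% higher and 29.5% lower over all tested genes. Cd40, among those that rose, passed the filter only through the Nup98::Nsd1 arrays. With only probe sets Present on all 6 arrays, 14 of 26 tested genes rose and 5 fell. Of all 17905 such probe sets, a count by probe set and not by gene, 7392 were called higher and 5435 lower. Ikbke, an IkB-kinase-related kinase also known in interferon signalling, rose 8.06-fold, from 363.1 ± 53.6 to 2906.8 ± 166.7 (SD, n = 3, adjusted p = 5.76e-10). Birc3, a ubiquitin ligase of the TNF receptor complex, rose 3.95-fold, and the adaptors Irak2 and Traf2 rose 1.91-fold and 1.61-fold. Tab2, a partner of the kinase TAK1, was higher by 0.45 on the log2 scale, which was not called with hybridization control scaling (0.08, adjusted p = 0.16).

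Map3k7, the gene of TAK1 itself, fell by 0.67 on the log2 scale on its brightest probe set, but of its 5 tested probe sets 2 were lower and 1 was higher. Tirap fell by 0.41 on its brighter probe set and rose by 0.33 on the other, Tradd fell by 0.37, and Tab3 fell by 0.30. Ikbkb, the catalytic kinase of the canonical branch, was at 1479.7 ± 67.9 and 1516.6 ± 52.7 on its brightest probe set (log2 0.04, 95% interval -0.09 to 0.16), and 2 of its 3 tested probe sets were lower. The brightest was also called lower with 75th percentile centring (-0.16, adjusted p = 0.0232) and hybridization control scaling (-0.33, adjusted p = 0.000964). With quantile normalization (0.03) and median centring (-0.13) it was not called. Map3k14, which encodes the kinase NIK of the non-canonical branch, had a log2 fold change of 0.30 with an interval of -0.17 to 0.77 and was not called. Ikbkb and Map3k14 were named after their values were seen. The split of 15 to 5 became 14 to 7 with quantile normalization and 12 to 7 with median centring. It became 12 to 9 with 75th percentile centring and 8 to 12 with hybridization control scaling. The last scaling moved all tested probe sets the same way, from 8678 higher and 5657 lower to 4573 and 9586.

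Genes listed here as further negative regulators of NF-kB were mixed as well. The list also holds nuclear IkB proteins such as IkB-zeta, which are not inhibitors alone. Of 23 tested, 13 rose (56.5%, beside 42.9% of all tested genes), 4 fell (29.5% of all tested genes did) and 6 were not called. The median log2 fold change was 0.37, beside 0.12 over all tested genes. Tnip2, among those that rose, passed the filter only through Nup98::Nsd1 arrays, and Socs1, among those that fell, only through mock arrays. With only probe sets Present on all 6 arrays, 12 of 21 tested genes rose and 3 fell. Of all 17905 such probe sets, a count by probe set and not by gene, 7392 were called higher and 5435 lower. Nfkbiz, the gene of the nuclear protein IkB-zeta, rose 3.0-fold, and all 3 of its probe sets rose. Tnip1, which encodes a partner of A20, rose 2.17-fold, Sigirr, an inhibitory receptor of the IL-1 family, rose 2.79-fold, and Nfkbil1 and Nkiras2 rose 2.14-fold and 1.84-fold. Irak3, an inhibitory member of the IRAK family, was higher by 0.46 on its brighter probe set and lower by 0.31 on the other, and the first was not called with hybridization control scaling (0.09, adjusted p = 0.106). Traf4 was 2.09-fold lower, Commd1 fell by 0.35, Otulin, a linear-ubiquitin protease, fell by 0.45, and Socs1 fell by 0.51 on the log2 scale. The split of 13 to 4 became 10 to 5 with quantile normalization and 10 to 6 with 75th percentile or median centring. With hybridization control scaling it became 6 to 10, where all tested probe sets gave 4573 higher and 9586 lower.

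Among 40 textbook target genes of NF-kB, 27 were tested, of which 17 rose, 3 fell and 7 were not called. That is 63.0% higher, beside 42.9% higher and 29.5% lower over all tested genes, and the median log2 fold change was 0.56, beside 0.12. The other 13 were Present on all 3 arrays of neither group. Ccl3, Ccl5, Tnfrsf9 and Cxcl1, among those that rose, passed the filter only through the Nup98::Nsd1 arrays, where they were high. With only probe sets Present on all 6 arrays, 13 of 21 tested genes rose. Of all 17905 such probe sets, a count by probe set and not by gene, 7392 were called higher and 5435 lower. Cxcl2, a neutrophil chemokine, rose 16.1-fold, from 67.0 ± 16.2 to 1054.4 ± 47.3. Lcn2, a granule protein that binds bacterial iron carriers, rose 7.39-fold, from 2003.6 ± 21.1 to 14811.7 ± 297.1 (adjusted p = 1.73e-12). Il6, a cytokine of inflammation, rose 4.23-fold, and Csf1, the macrophage growth factor, rose 2.92-fold on its brightest of 4 probe sets. Ltb, which encodes lymphotoxin beta, part of a membrane ligand that can signal through the non-canonical branch, rose 2.07-fold. Birc3 belongs to this list as well.

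Other textbook targets went down or did not pass. Tnfsf9, the ligand of 4-1BB, was 3.17-fold lower. Sod2, the mitochondrial superoxide dismutase, fell by 0.25 on the log2 scale and was lower on all 4 of its probe sets, and Gadd45b, a stress-response gene, fell by 0.36. Tnf was not called, at 276.7 ± 76.3 and 297.4 ± 80.4 (log2 0.11, 95% interval -0.37 to 0.58), and neither was Myc, at 0.06 (interval -0.04 to 0.15). The call of Myc depended on the scaling. Quantile normalization called it higher (0.2, adjusted p = 0.000861). It was called lower with 75th percentile centring (-0.14, adjusted p = 0.023) and hybridization control scaling (-0.31, adjusted p = 3.49e-05), and not called with median centring (-0.11). Tnf and Myc were named after their values were seen. The split of 17 to 3 became 15 to 3 with quantile normalization or median centring, 15 to 4 with 75th percentile centring and 13 to 4 with hybridization control scaling. Over all tested probe sets the last scaling gave 4573 higher and 9586 lower.

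**Figure D4:**
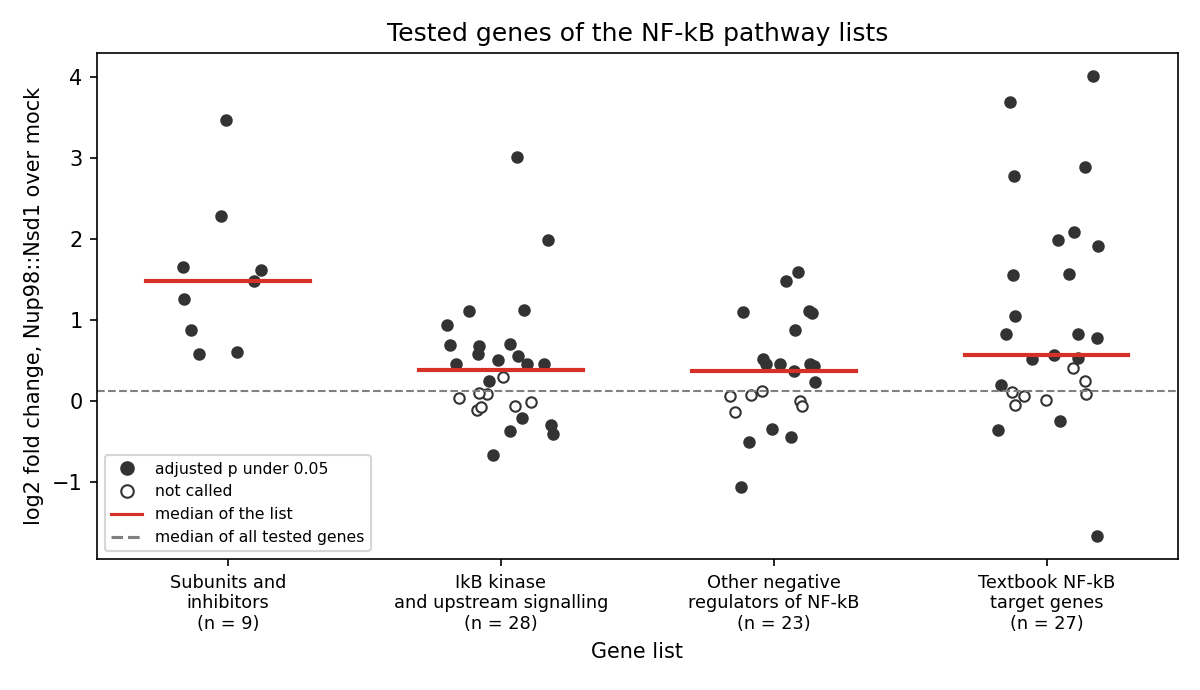
Log2 fold change of Nup98::Nsd1 over mock (vertical axis) of each tested gene in the subunit and inhibitor group and in 3 further NF-kB lists, filled where the adjusted p was under 0.05; red bars are list medians and the dashed line the median of all tested genes. All 9 subunit and inhibitor genes lie above the dashed line with a median of 1.48, while the other lists have medians of 0.37, 0.37 and 0.56 and members on both sides of 0.

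Genes with a course over the 6 arrays most like a member's were found by the root mean square difference of log2 signals, each centred on its mock mean. For the Nfkbia probe set 1448306_at the 4 closest genes were Neat1 at 0.056, Ppp1r15a at 0.066, and Pf4 and Casp4 at 0.069 each. For Relb they were Xaf1 at 0.272, Clec10a at 0.302, Il23a at 0.31 and Itgb3 at 0.326. The mock signals of Relb were scattered, with an SD of 20.7 around 58.7. With 2 groups of 3 arrays, this measure mostly picks genes with a similar rise.

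RNA measures and cell markers also differed between the groups. The ratio of 3′ to 5′ signal of Actb was 1.15 to 1.20 on the mock arrays and 1.45 to 1.5 on the Nup98::Nsd1 arrays, and that of Gapdh was 0.742 to 0.77 and 0.799 to 0.843. Of 12 markers of the myeloid line with a probe set, 11 were Present on all mock arrays and 10 on all Nup98::Nsd1 arrays, with summed signals of 53798.1 to 56579.9 and 40343.6 to 41362.5; Kit was Absent throughout. This sum is led by bright probe sets such as Mpo (19095.4 ± 840.6 to 5183.4 ± 35.6) and Prtn3 (9202.3 ± 345.5 to 4877.6 ± 61.0), while Il3ra was 3.29-fold and Cebpa 1.83-fold higher. Ptprc was higher by 0.39 and Spi1 by 0.32 on the log2 scale, but with hybridization control scaling they were at 0.03 and -0.05 and not called. Of 9 macrophage markers 4 were Present on all arrays of each group, and the sums over the 9 were 5107.2 to 5352.8 and 7258.5 to 7464.9. The 4 did not move together. Fcgr1 went from 1222.1 ± 57.7 to 2937.7 ± 35.0, Csf1r was 2.31-fold and Adgre1 1.17-fold higher, and Cd68 was 1.23-fold lower. Of 8 dendritic cell and MHC class II markers only Cd74 was Present on all arrays of either group, the other 7 were Absent on all 6 arrays, and the sums were 371.6 to 420.7 and 1537.1 to 1708.4. Of 6 B cell markers 3 were Present on all mock arrays and 1 on all Nup98::Nsd1 arrays (sums 689.3 to 737.8 and 622.7 to 726.4). None of 6 T and NK cell markers (242.0 to 254.2 and 166.5 to 227.9) or 8 fibroblast markers (259.3 to 328.9 and 293.0 to 385.4) was Present on all arrays of a group. The part of RNA quality and of such cells in the members' rises was not tested.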

How the data were processed

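Biotin-labelled cRNA made from 100 ng of total RNA of each sample was hybridised, and the authors processed the arrays with MAS5, per the labels. The authors deposited, per the file headers, a scaled intensity, a detection p-value and a detection call for each of 45101 probe sets. No MAS5 version or scaling target was given in the sources used here. Symbols came from the platform's annotation, updated through Entrez identifiers for 34741 of the 34945 probe sets with 1 symbol.

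Intensity values under 1 were set to 1 and taken to log2. The 20494 probe sets called Present by all 3 arrays of either group were fitted with limma 3.58.1 in R 4.3.3, with an intensity trend and Benjamini-Hochberg adjustment over all of them. The script was tested on simulated data. All members were named. In each list, up to 6 genes with the smallest adjusted p and up to 4 called in the rarer direction were named. Members and lists were chosen with earlier results of these data known. The alternatives were pseudocounts of 16 and 64, other detection filters, 4 scalings, the deposited series matrix, no trend of variance with intensity, array weights, a replicate block, averaging the probe sets of each gene, and omission of single arrays.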

Additional observations from a re-analysis of the deposited data

How the results depend on the processing

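Over 18 alternatives, all 285 values of the members' log2 fold changes kept their direction and stayed past the threshold; only the 13 probe sets Present on all 6 arrays have a value under that stricter filter. With the replicate block, 16 member probe sets were called higher and 0 lower. Same-numbered samples did not deviate together (r = -0.017, -0.011 and 0.021 over probe sets), so the numbers were not taken as pairs. The lowest and highest values over these alternatives were 2.49 and 3.72 for Relb, 0.21 and 0.59 for Rela, 0.45 and 0.97 for Rel, and 0.94 and 1.64 for Bcl3. Counts in the upstream list moved to 8 higher and 12 lower with hybridization control scaling and to 9 lower with 75th percentile centring. Among the further negative regulators, hybridization control scaling gave 6 higher and 10 lower. The same scaling moved all tested probe sets from 8678 higher and 5657 lower to 4573 and 9586. The other list counts stayed within 1.5 times. The widest standard errors were those of Nfkb2 1429128_x_at (0.234), Bcl3 (0.23) and Relb (0.22), and the number of arrays limits the precision.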
